A study of Mus musculus with 6 samples.

Results

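Heat shock proteins and their J-domain partners were compared between the skin of 3 LynDN transgenic mice and 3 wild-type (WT) mice. The 74 genes are defined by symbol, as every gene on the array whose single symbol begins with Hspa, Hspb, Hspd, Hspe, Hsph, Hsp90, Dnaja, Dnajb or Dnajc, together with Hsf1, Hsf2 and Cryab. They rest on 83 of the 25344 probes and make up 74 of the 22879 rows tested. No probe was named Hsf1, so the heat shock factors are represented by Hsf2. Lyn belongs to the Src family of tyrosine kinases, and the transgene is also spelled LynDeltaN. Its promoter and the strain, age and sex of the mice are not stated by the labels. Each mouse of a genotype met 1 mouse of the other on 2 two-colour arrays with the dyes exchanged: LynDN mouse 1 with WT mouse 1 (pair 1), LynDN mouse 2 with WT mouse 3 (pair 2), and LynDN mouse 3 with WT mouse 2 (pair 3). All 6 RNAs came from whole skin, so fewer cells of a type and less RNA per cell cannot be told apart in any value below.

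Molecular chaperones bind unfolded protein and either hold it or help it fold. HSP70 proteins (Hspa genes) do so in cycles of ATP hydrolysis that J-domain proteins (Dnaj genes) start and that HSP110 proteins and other exchange factors end, and HSP90 receives part of the clients from HSP70. Small heat shock proteins (Hspb genes and Cryab) hold clients without ATP, and in epidermis they are known from the differentiating layers. Heat shock factors bind repeats of GAA and TTC, named heat shock elements, in the promoters of many of these genes.

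Values are log2 ratios between the 2 genotypes as deposited, averaged over the dye swap of each pair, and the spread is the SD over the 3 pairs. The numerator and the log base are not stated. Base 2 was assumed, and positive and negative mark opposite sides only: if WT were the numerator, every sign would turn at once. The alarmin genes S100a9 and S100a8, known for high levels in inflamed epidermis, were positive on each array and averaged 5.54 ± 0.16 and 4.61 ± 0.12 (SD, n = 3). Skin inflammation is what LynDN mice are known for, which makes LynDN the likely numerator, and this was not settled by any label. Pair 1 stood apart from the others. Over all rows it correlated with pairs 2 and 3 at 0.350 and 0.386, against 0.745 between pairs 2 and 3. Over the 74 chaperone genes those correlations were 0.180, 0.131 and 0.692, where the points share arrays. Genes that mark sex also set pair 1 apart. By pair, Eif2s3y on the Y chromosome had 3.50, 0.00 and 0.03, and Kdm5d, also on it, had 1.24, -0.05 and 0.13. Xist, transcribed from the inactive X of females, had -1.06, -0.09 and -0.14. By these genes the mice of pair 1 were of opposite sex, so its ratios mix sex with genotype. The part of sex in the chaperone ratios was not tested. Values of named genes are therefore mostly given by pair, and the test without pair 1 is given for some of them.

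Promoters that carry a perfect heat shock element are shown because heat shock factors bind such elements. RefSeq promoters (GRCm38.p6, 250 bases before to 50 bases after a start site) were found for 60 of the 74 genes. The motif searched was 3 alternating units 2 bases apart, GAANNTTCNNGAA on either strand, and its overlapping matches were merged. At least 1 promoter held it in 4 of the 60 genes (6.67%), namely Hspe1, Hspd1, Hsph1 and Dnajb6, against 179 of the 27025 genes in the table (0.662%). Counted by promoter, 198 of 32851 held it (0.603%). Hspe1 and Hspd1, which encode the mitochondrial co-chaperonin HSP10 and the chaperonin HSP60, lie head to head, so that 1 stretch serves as the promoter of both. It is printed on the strand of Hspe1, on chr1:55087898-55088197, and the promoters of Dnajb6 (chr5:29735648-29735947, plus strand) and Hsph1 (chr5:149636266-149636565, minus strand) follow. Capitals mark the element.
Hspe1: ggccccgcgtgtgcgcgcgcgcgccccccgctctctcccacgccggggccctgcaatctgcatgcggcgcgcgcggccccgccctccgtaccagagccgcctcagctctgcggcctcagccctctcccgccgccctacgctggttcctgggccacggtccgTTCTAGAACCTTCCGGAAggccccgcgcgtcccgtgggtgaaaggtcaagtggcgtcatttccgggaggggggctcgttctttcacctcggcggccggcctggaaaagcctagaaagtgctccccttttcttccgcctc
Dnajb6: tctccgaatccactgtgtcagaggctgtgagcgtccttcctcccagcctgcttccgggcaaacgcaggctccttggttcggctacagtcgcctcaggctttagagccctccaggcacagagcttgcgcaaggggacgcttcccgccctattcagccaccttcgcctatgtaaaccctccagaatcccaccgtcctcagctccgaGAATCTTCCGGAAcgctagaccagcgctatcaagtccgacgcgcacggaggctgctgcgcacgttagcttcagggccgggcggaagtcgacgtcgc
Hsph1: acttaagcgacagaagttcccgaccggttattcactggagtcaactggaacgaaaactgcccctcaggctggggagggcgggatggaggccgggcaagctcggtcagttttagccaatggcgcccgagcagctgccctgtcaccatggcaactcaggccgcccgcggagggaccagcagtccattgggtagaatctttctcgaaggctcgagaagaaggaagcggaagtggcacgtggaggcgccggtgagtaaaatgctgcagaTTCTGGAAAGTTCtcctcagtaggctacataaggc
In Dnajb6 the element begins at base -46 relative to the start site, in Hspe1 at -89 and in Hsph1 at 15. The 4 genes had a median log2 ratio of -0.05, with 1 positive and 3 negative, against -0.02 for the other 56. The sign of that median turned with the dye: it was 0.08 with LynDN in Cy3 and -0.11 with LynDN in Cy5, where the other 56 genes had -0.01 and -0.02. Imperfect elements and sequence outside these promoters were not searched, so the other 56 genes may carry elements too.

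Ratios of the chaperone genes were small. Their mean log2 ratios ran from -0.40 for Dnajb7 to 0.27 for Hspa4l, at most 1.32-fold in size, and 30 were positive and 44 negative. In 40 genes the size was under 0.1, in 23 it was from 0.1 to 0.2 and in 11 it was 0.2 or more. The median was -0.02 (0.02, -0.03 and -0.04 in pairs 1, 2 and 3), against -0.01 for all rows, and by orientation it was 0.00 with LynDN in Cy3 and -0.04 with LynDN in Cy5. None of the 74 reached a 2-fold ratio, which 137 of all rows did (0.599%). The median size was 0.0953, against 0.0649 over all rows, and 14.9% of the 74 lay at 0.2 or beyond, against 12.4% of all rows.

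**Figure D1:**
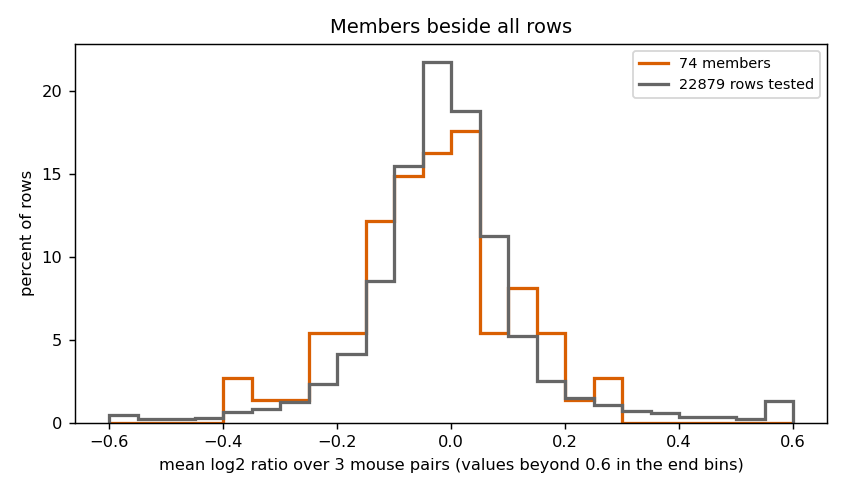
Mean log2 ratio over 3 mouse pairs (x axis, sign as deposited) in bins of 0.05, as percent of the 74 chaperone genes (orange) and of the 22879 rows tested (grey); rows beyond 0.6 are counted in the end bins. The chaperone genes lie between -0.40 and 0.27, while both end bins of the grey line hold rows with larger ratios.

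In the limma test on the pair values 0 of the 74 genes passed at an adjusted p of 0.05, and the smallest adjusted p was 0.256, that of Dnaja4. Over all rows 0.0175% passed as positive and 0% as negative. At an unadjusted p under 0.05 there were 7 positive and 6 negative chaperone genes (9.46% and 8.11%), against 5.92% and 6.41% of all rows. The 95% intervals, not adjusted for the number of genes, lay within 1 of 0 for all 74 genes and within 0.5 of 0 for 69. Their extreme bounds were -0.73 for Hspa2 and 0.50 for Hspa4l. When simulated rows were given the same change of 1 on the log2 scale in every pair, this test recovered 75.8% of them at the spread of the real rows. The 200 changed rows of a run mixed changes of 1, 2 and 4, and the adjusted p depends on that mix. Recovery with changes of 1 alone was not simulated. Of the real rows, 137 had a mean size of 1 or more, yet only 4 of all rows passed. Changes under 1 were not simulated, so the share does not apply to ratios as small as those of the chaperone genes. Another fit took all 6 arrays, with a term for the dye and mouse pairs as random blocks. In it 1 chaperone gene passed as negative (Dnaja4) and 0 as positive, against 0.459% and 0.603% of all rows. The arrays of a swap carry the same mice, yet this fit gave them a correlation of only 0.151 in every row. It thus counted them almost as separate mice, so its p-values for genotype ratios, here and below, may be too small. Over all rows it passed 243, against 4 on the pair values. The same sign on 6 of 6 arrays was seen in 4 positive genes (5.41%) and 5 negative genes (6.76%), against 3.72% and 4.31% of all rows. The 4 positive ones were Dnajb9, Dnajb13, Dnajc10 and Dnajc5, and the 5 negative ones were Hspa12b, Dnaja2, Dnaja4, Dnajb7 and Dnajc18.

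**Figure D2:**
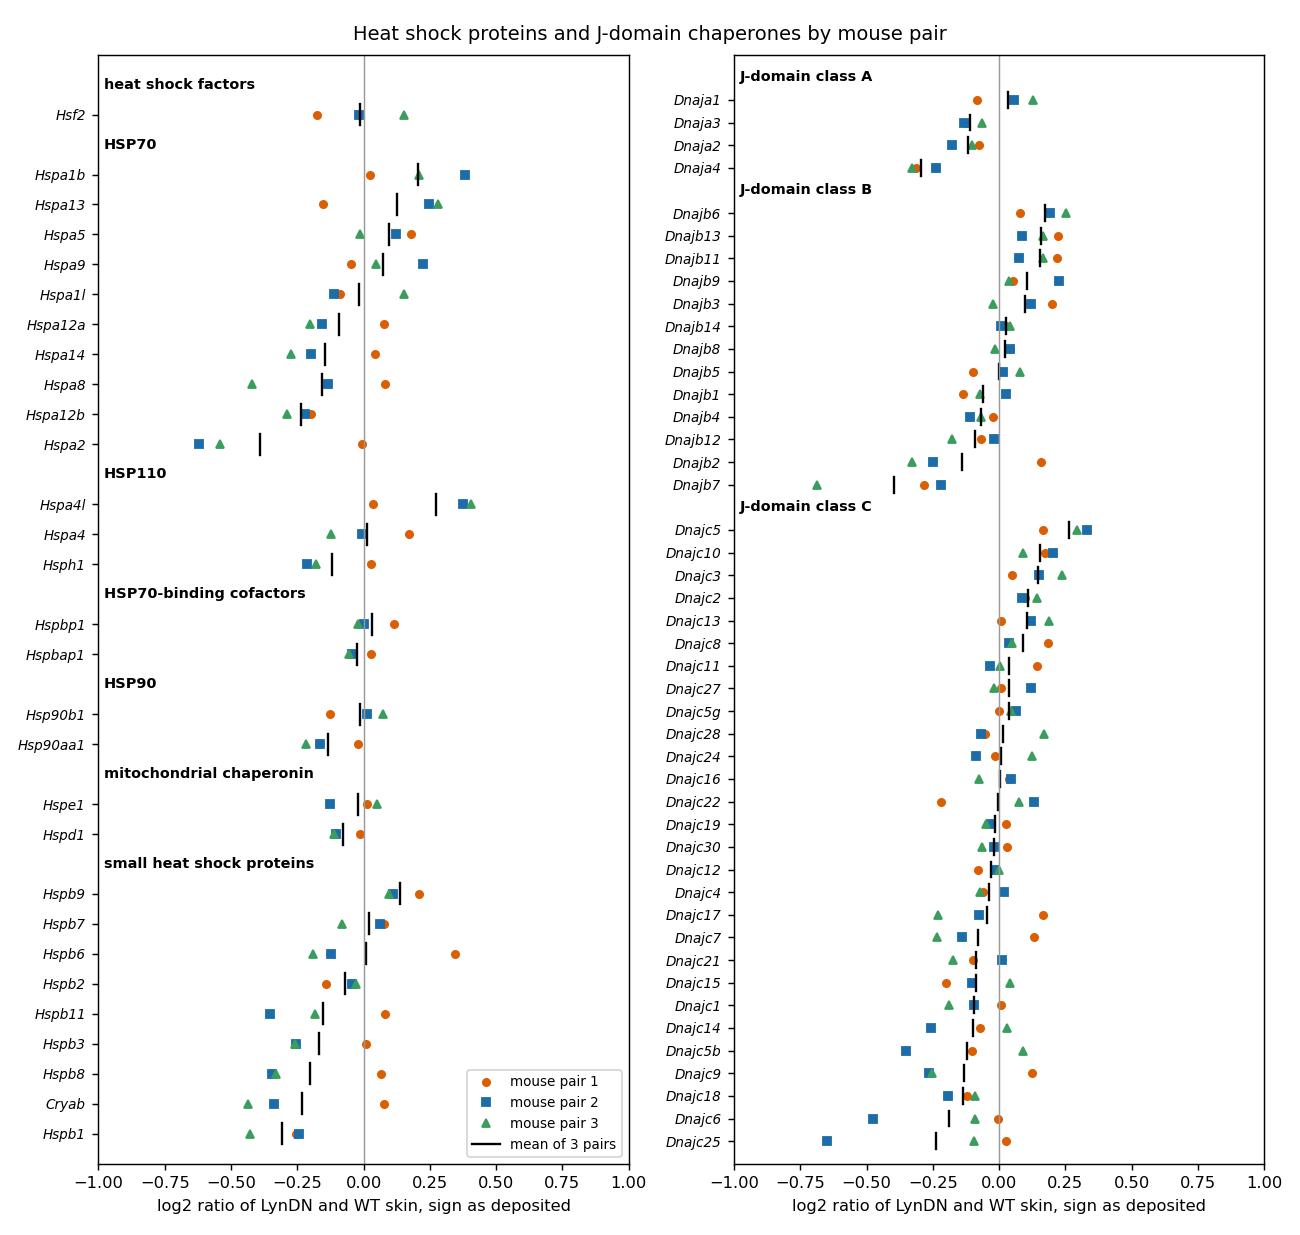
Log2 ratio of LynDN and WT skin (x axis, sign as deposited) for each of the 74 genes by role, with a point for each mouse pair (mean of its 2 dye-swap arrays) and a bar for the mean of the 3 pairs. Most bars lie within 0.2 of 0, and in genes such as Hspa2, Hspa4l and Cryab the point of pair 1 stands apart from those of pairs 2 and 3.

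Hsf2, a transcription factor that pairs with HSF1 on heat shock elements, averaged -0.01 ± 0.16 (SD, n = 3). Its arrays gave -0.17 and -0.19 in pair 1, -0.08 and 0.04 in pair 2, then -0.20 and 0.50 in pair 3, where LynDN was in Cy3 on the first array of each pair and in Cy5 on the second. Arrays lay on both sides of 0, and the value of 0.50 was far from the other 5.

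Among the 10 HSP70 genes, 4 were positive and 6 negative, with a median of -0.06 (0.01, -0.12 and -0.11 by pair). That median was 0.10 with LynDN in Cy3 and -0.08 with LynDN in Cy5, so its sign turned with the dye. Hspa12b, a distant HSP70 relative known from endothelium, had -0.16 and -0.24 in pair 1, -0.20 and -0.24 in pair 2, then -0.23 and -0.35 in pair 3. Every array was negative and close to the next, and the mean was -0.24 ± 0.05 (SD, n = 3; adjusted p = 0.279, and 0.0686 with the block). Of 7 endothelial markers measured, 3 were positive and 4 negative, and none of them had an unadjusted p under 0.05. Their medians were -0.05, -0.05 and 0.06 in pairs 1, 2 and 3.

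Hspa2, an HSP70 that male germ cells of mice need for meiosis, had the second largest negative ratio of the 74 genes. Its arrays gave -0.04 and 0.02 in pair 1, -0.83 and -0.41 in pair 2, then -0.72 and -0.36 in pair 3. Pair 1 lay at 0 and the other pairs were clearly negative, which gave -0.39 ± 0.33 (SD, n = 3; adjusted p = 0.365). Hspa1b, the stress-inducible HSP70 whose probe may not tell it from its near copy Hspa1a, had 0.03, 0.38 and 0.21 in pairs 1, 2 and 3 and a mean of 0.21 ± 0.18 (SD, n = 3; adjusted p = 0.410). Hspa8, the constitutive cytosolic HSP70, had 0.08, -0.13 and -0.42 by pair. The remaining HSP70 genes, Hspa5, Hspa9, Hspa13, Hspa14, Hspa1l and Hspa12a, had means from -0.14 to 0.12.

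HSP110 proteins exchange nucleotide on HSP70, and the 3 genes did not move together. Hspa4l, enriched in testis, gave 0.13 and -0.06 in pair 1, 0.39 and 0.36 in pair 2, then 0.53 and 0.28 in pair 3. Only the Cy5 array of pair 1 was negative, and the mean of 0.27 ± 0.21 (SD, n = 3; adjusted p = 0.356) was the highest of the 74. Hsph1, which carries a heat shock element in the printed promoter, had 0.03, -0.21 and -0.18 by pair. Hspa4 averaged 0.01 ± 0.15 (SD, n = 3), but its 3 probes gave -0.25, 0.20 and 0.09, so probes of this gene disagreed in sign. The cofactors Hspbp1, an exchange factor of HSP70, and Hspbap1, which binds HSPB1, had means of 0.03 and -0.02.

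HSP90 was represented by Hsp90aa1, the inducible cytosolic form, and Hsp90b1, the form of the endoplasmic reticulum. No probe had Hsp90ab1, the constitutive cytosolic form, as its single symbol, so that gene was not measured here. Hsp90aa1 had -0.02, -0.16 and -0.22 by pair and a mean of -0.13 ± 0.10 (SD, n = 3; adjusted p = 0.460), positive with LynDN in Cy3 alone (0.11). Hsp90b1 had -0.12, 0.01 and 0.07 by pair and a mean of -0.01. The chaperonin genes Hspd1 and Hspe1, which share the printed promoter, averaged -0.08 ± 0.05 and -0.02 ± 0.09 (SD, n = 3).

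Small heat shock proteins had the lowest median of any role with over 4 genes, -0.15 for 9 genes, made up of 0.08 in pair 1, -0.25 in pair 2 and -0.19 in pair 3. Of the 9, 3 were positive and 6 negative. Hspb11, whose mean of -0.15 is that median, is counted here by its symbol but encodes an intraflagellar transport protein. Hspb1 (HSP27 in human), a small heat shock protein of differentiating keratinocytes that binds actin and keratin networks, gave 0.03 and -0.54 in pair 1, -0.23 and -0.26 in pair 2, then -0.42 and -0.43 in pair 3. Each pair was negative, but the arrays of pair 1 lay far apart, and the mean was -0.31 ± 0.10 (SD, n = 3; adjusted p = 0.273, and 0.111 with the block). Markers of differentiated keratinocytes lay on the same side: all 5 measured were negative, with medians of -0.46, -1.80 and -2.05 by pair, and filaggrin (Flg) had -2.23 ± 0.86 (SD, n = 3). All 6 basal keratinocyte markers were positive, with medians of 0.23, 0.57 and 0.48. Markers of stressed keratinocytes, among them the envelope precursor gene Sprr1b and the keratin gene Krt16, lay on the side opposite to Hspb1. All 6 measured were positive, with medians of 3.08, 4.31 and 4.53. The part of these cells in the Hspb1 ratio was not tested.

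Among the small heat shock genes, 6 are known for high levels in striated muscle, which mouse skin holds as a sheet beneath the fat. Cryab, which encodes the desmin-protecting alpha B-crystallin, gave -0.13 and 0.29 in pair 1, -0.35 and -0.33 in pair 2, then -0.55 and -0.33 in pair 3. Pairs 2 and 3 were negative on all 4 arrays and pair 1 was divided, which gave -0.23 ± 0.27 (SD, n = 3; adjusted p = 0.477). Hspb3 had 0.01, -0.26 and -0.26 by pair, and Hspb8, a partner of the co-chaperone BAG3, had 0.07, -0.35 and -0.33. Hspb6 had 0.35, -0.12 and -0.19. In Hspb2 pair 1 was the lowest, with -0.14, -0.04 and -0.03, and Hspb7 stayed near 0, with 0.08, 0.06 and -0.08.

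Skeletal muscle markers had a like order of pairs, and so did markers of some other tissues, while others had the opposite order. Of 15 measured, 12 were negative and 3 positive, and their medians were 0.00, -0.43 and -0.61 in pairs 1, 2 and 3. The fast myosin gene Myh4 had -0.30, -0.95 and -2.35, while Mb and Ryr1 stayed within 0.1 of 0 in every pair. None of the 15 passed on the pair values (smallest adjusted p = 0.279, that of Actn3). At an unadjusted p under 0.05 in the same limma test, 7 of the 15 were negative and 0 positive, where 6.41% of all rows were negative. On all 6 arrays 2 of the 15 were negative. Pair 1 also lay above pairs 2 and 3 in the medians of 6 hair follicle markers (0.10, -0.98 and -0.54). The same held for 7 adipocyte markers (0.18, -0.36 and -0.09) and 3 red blood cell markers (-0.07, -1.34 and -0.40). Pair 1 lay below pairs 2 and 3 in 7 macrophage and monocyte markers (-0.04, 0.48 and 0.81). It was also below them in 7 neutrophil markers (0.06, 0.51 and 0.44) and 7 fibroblast markers (-0.15, 0.11 and 0.10). The part of muscle or of any other tissue in the ratios of Cryab, Hspb3, Hspb6 and Hspb8 was not tested.

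**Figure D3:**
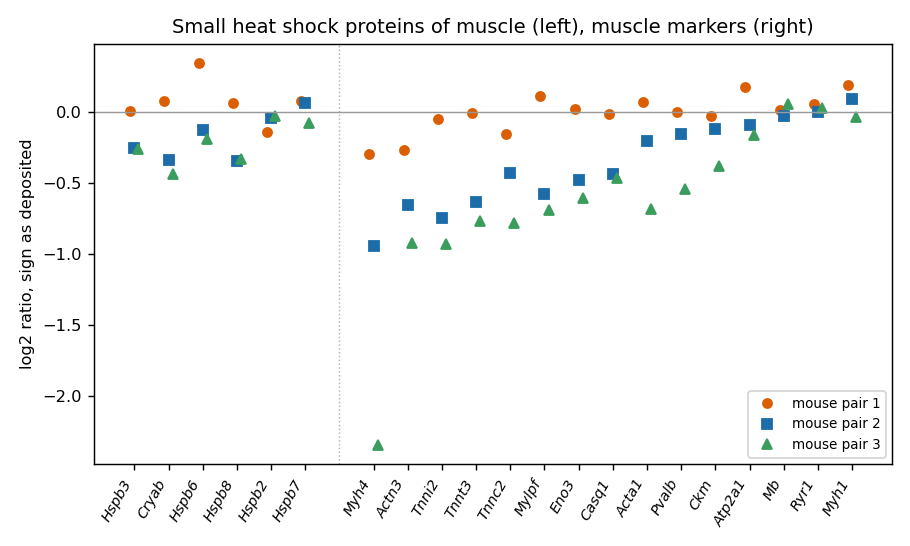
Log2 ratio by mouse pair (y axis, sign as deposited) for the 6 small heat shock genes known from striated muscle (left of the dotted line) and 15 skeletal muscle markers (right), with a point for each pair. In Cryab, Hspb3, Hspb6 and Hspb8 pair 1 lies above pairs 2 and 3, as it does in most markers.

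Without pair 1, 3 of the 74 genes passed on pairs 2 and 3 alone. Hspa4l was positive at 0.39 (adjusted p = 0.0380), and Hspa2 and Cryab were negative at -0.58 (adjusted p = 0.0162) and -0.39 (adjusted p = 0.0452). That is 1 positive and 2 negative of 74, or 4.05% in all, where 3.22% of all rows passed as positive and 1.67% as negative. The test without pair 1 rests on 2 mice of each genotype. With pair 1, none of these genes passed. Dnaja4, Hspb1, Hspa12b, Dnajb7 and Dnajc5 did not pass without pair 1, with means of -0.28, -0.34, -0.26, -0.45 and 0.31. Their adjusted p in that limma test lay between 0.0683 and 0.139.

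J-domain proteins made up 45 of the 74 genes, 20 positive and 25 negative, with a median of -0.02. In class A, which resembles bacterial DnaJ throughout, 3 of 4 genes were negative. Dnaja4, a prenylated cytosolic partner of HSP70, was the gene with the smallest p of the 74. Its arrays with LynDN in Cy3 gave -0.60, -0.44 and -0.52 in pairs 1, 2 and 3, and those with LynDN in Cy5 gave -0.02, -0.03 and -0.14. All 6 were negative, yet the orientations did not overlap. The mean was -0.29 ± 0.05 (SD, n = 3; adjusted p = 0.256, and 0.0493 with the block), and the SD over pairs does not show the difference between orientations. That difference, 0.46 for Cy5 minus Cy3, itself passed the test of the dye term (adjusted p = 0.0431).

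Dnaja2 and the mitochondrial Dnaja3 had means of -0.12 ± 0.05 and -0.11 ± 0.04 (SD, n = 3), negative in each pair. Dnaja1 had -0.08, 0.06 and 0.13 by pair. No class A gene other than Dnaja4 had an unadjusted p under 0.05.

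Class B J-domain proteins numbered 13, with 7 positive and 6 negative and a median of 0.02. Dnajb7, enriched in testis, gave the lowest mean of the 74. Its arrays had -0.10 and -0.47 in pair 1, -0.14 and -0.30 in pair 2, then -0.42 and -0.95 in pair 3. All were negative, with the Cy5 array below the Cy3 array in each pair, and the mean was -0.40 ± 0.25 (SD, n = 3; adjusted p = 0.305). Dnajb6, which keeps aggregation-prone proteins soluble and carries an element in its printed promoter, had 0.08, 0.19 and 0.25 by pair and a mean of 0.17 ± 0.09 (SD, n = 3; adjusted p = 0.363). Dnajb13, a protein of sperm and ciliary axonemes, was positive on each array, at 0.16 and 0.29 in pair 1, 0.05 and 0.12 in pair 2, then 0.11 and 0.22 in pair 3, and averaged 0.16 ± 0.07 (SD, n = 3; adjusted p = 0.374). Dnajb1, the classical heat-inducible HSP40, averaged -0.06 ± 0.08 (SD, n = 3).

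The 28 class C genes, which share little beyond the J domain, had a median of -0.02, with 12 positive and 16 negative. Dnajc5, the cysteine string protein of secretory vesicles, gave 0.03 and 0.30 in pair 1, 0.32 and 0.34 in pair 2, then 0.37 and 0.22 in pair 3. Each array was positive and only the Cy3 array of pair 1 lay near 0, for a mean of 0.26 ± 0.09 (SD, n = 3; adjusted p = 0.279, and 0.102 with the block). Dnajc18 was negative on each array, with -0.12, -0.19 and -0.09 by pair and a mean of -0.13 ± 0.05 (SD, n = 3). Dnajc25 and Dnajc6 had -0.65 and -0.48 in pair 2 alone, and for Dnajc25 this came from 1 array at -1.34. The other 24 class C genes had means between -0.13 and 0.16.

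**Figure D4:**
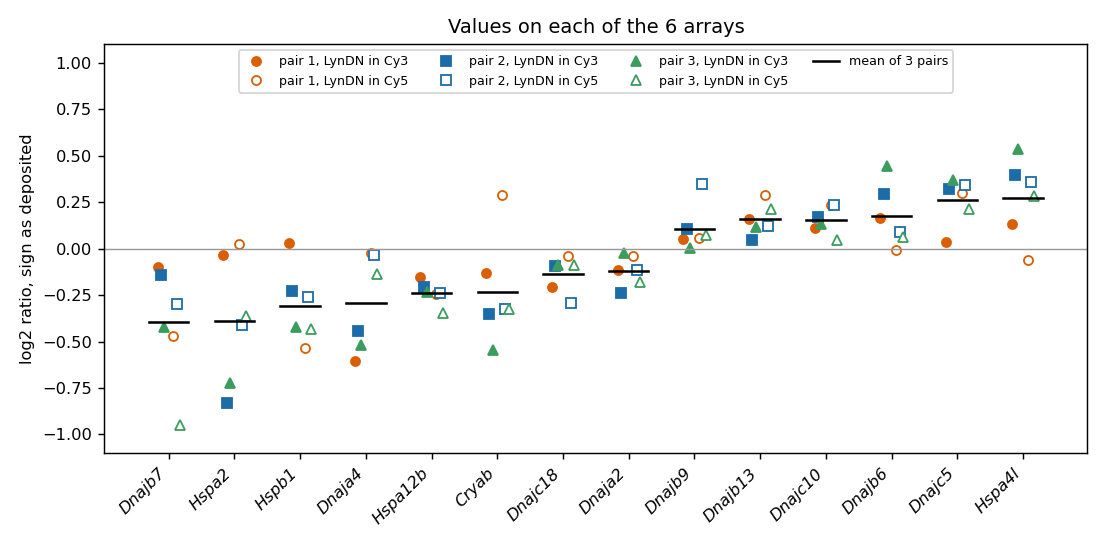
Log2 ratio (y axis, sign as deposited) on each of the 6 arrays for 14 chaperone genes, with shapes for mouse pairs, filled symbols for LynDN in Cy3, open symbols for LynDN in Cy5, and a bar for the mean of 3 pairs. In Dnaja4 the filled and open symbols do not overlap, in Hspa2 and Hspa4l pair 1 lies nearest 0, and in Hspa12b and Dnajc5 the arrays lie on 1 side.

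Chosen chaperones of the endoplasmic reticulum (ER) were mostly positive by small amounts. The grouping by compartment was made after the values were seen. Among 8 such genes 6 were positive, and the median was 0.11 (0.05, 0.14 and 0.08 by pair). They include Dnajc10, which reduces disulfide bonds, with 0.17, 0.20 and 0.09 by pair, and Dnajb11, a co-chaperone of BiP, with 0.22, 0.07 and 0.17. Dnajc3, an inhibitor of the stress kinase PERK, had 0.05, 0.15 and 0.24, and Dnajb9, a repressor of the stress sensor IRE1, had 0.05, 0.23 and 0.04. All 4 were positive in each pair, with means of 0.16 ± 0.06, 0.15 ± 0.07, 0.15 ± 0.10 and 0.11 ± 0.11 (SD, n = 3). Hspa5 (BiP) had 0.18, 0.12 and -0.01 by pair, and the smallest adjusted p of the 8 genes was 0.368. Some J-domain genes of the ER membrane were not in the group. Of these, Dnajb12, Dnajc14 and Dnajc18 had means of -0.09, -0.10 and -0.13, and Dnajb14 had 0.02. The lean of the group thus depends on which genes were chosen. A chosen group of 6 mitochondrial genes had a median of -0.05, with 1 positive (Hspa9) and 5 negative. By orientation its median was -0.18 with LynDN in Cy3 and 0.02 with LynDN in Cy5. Dnajc11 and Dnajc28, also mitochondrial, were not in that group and had means of 0.04 and 0.02. A chosen group of 8 genes known mainly from germ cells ran from -0.40 (Dnajb7) to 0.16 (Dnajb13). Hspa4l and Hspa2, with means of 0.27 and -0.39, were not in that group. Spot intensities were not used here, so the distance of all these genes from background is unknown.

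In several chaperone genes the ratio differed with the dye orientation. The median size of the difference between orientations was 0.170 over the 74 genes and 0.150 over all rows, and the dye term passed for 4 of the 74 (5.41%), against 2.56% of all rows. Hspb8 averaged 0.27 with LynDN in Cy3 and -0.68 with LynDN in Cy5 (adjusted p = 0.0374 for the dye term), and Hspa9, the mitochondrial HSP70, averaged 0.48 and -0.33 (adjusted p = 0.0369). Dnajb1 averaged 0.31 and -0.43 in the same orientations (adjusted p = 0.0284). Dnaja4 was the other gene that passed. Hspb8, Hspa9 and Dnajb1 were named after their values were seen.

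Hspd1 and Hspe1, the neighbours on 1 promoter, leaned opposite ways with the dye. Hspd1 had 0.46, 0.01 and -0.09 with LynDN in Cy3 and -0.49, -0.22 and -0.14 with LynDN in Cy5, in pairs 1, 2 and 3. Hspe1 had -0.22, -0.32 and -0.14 with LynDN in Cy3 and 0.25, 0.06 and 0.24 with LynDN in Cy5. Averaged over orientations, each lay within 0.13 of 0 in every pair. In 9 of the 74 genes (12.2%) all Cy3 arrays lay on 1 side of 0 and all Cy5 arrays on the other, as they did in 11.4% of all rows. Across the 74 genes the 2 arrays of a swap correlated at -0.403, 0.171 and 0.342 in pairs 1, 2 and 3.

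**Figure D5:**
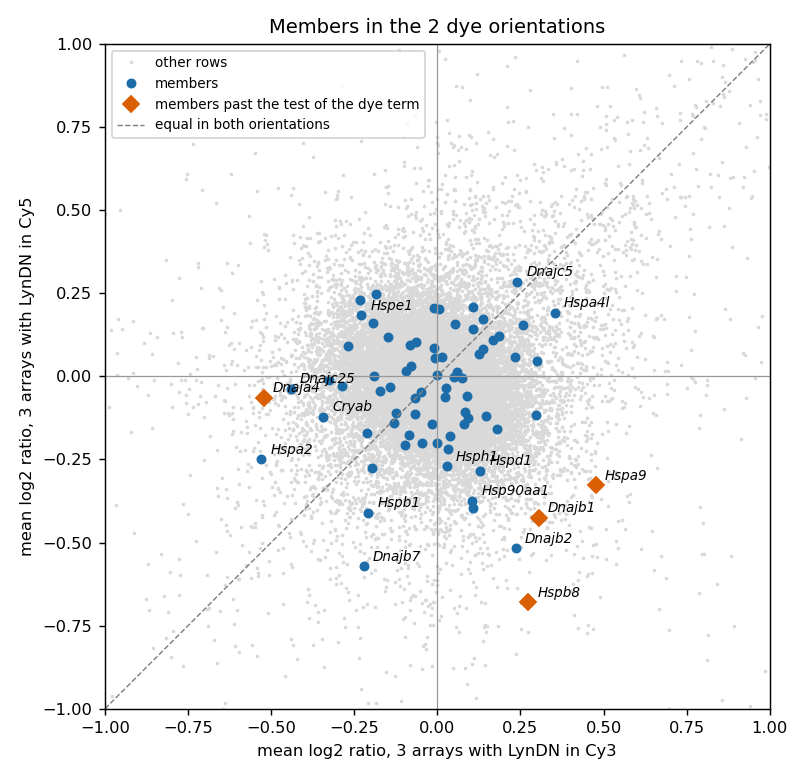
Mean log2 ratio over the 3 arrays with LynDN in Cy3 (x axis) and over the 3 with LynDN in Cy5 (y axis) for the 74 chaperone genes (blue), for the 4 past the test of the dye term (orange diamonds) and for other rows (grey, those beyond 1 on an axis not drawn). Hspb8, Hspa9 and Dnajb1 lie in the lower right, positive in the first orientation and negative in the second, and Dnaja4 lies left of the dashed line of equal values.

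Other genes of the same pathways were taken from lists. Of 20 genes listed as co-chaperones of HSP90, 7 were positive and 13 negative, with a median of -0.02. The list includes Trap1, which is itself the mitochondrial HSP90, and the largest ratio was that of Ppid, -0.24 ± 0.22 (SD, n = 3). Stip1, which passes clients from HSP70 to HSP90, had -0.10, -0.13 and -0.21 by pair. Of 14 cofactors of HSP70, 7 were positive and 7 negative. The mitochondrial exchange factors Grpel1 and Grpel2 had 0.28 ± 0.24 and 0.27 ± 0.20 (SD, n = 3), and Bag3, the partner of HSPB8, had 0.20, 0.06 and 0.88 by pair. The value of 0.88 came from 1 array at 1.94, and the dye swap of that array gave -0.18. On the pair values 0 genes of these lists passed, and the smallest adjusted p was 0.351.

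The cytosolic chaperonin and prefoldin, which fold actin and tubulin, were negative in 12 of 15 genes, with a median of -0.05 (-0.01, -0.13 and -0.10 by pair), where 12844 of the 22879 rows were negative. The sign of the median turned with the dye, with 0.05 for LynDN in Cy3 and -0.20 for LynDN in Cy5. The chaperonin subunit Tcp1 had -0.23, -0.26 and -0.28 by pair, an SD of 0.02 around -0.26, with adjusted p = 0.273, and 0.0622 with the block. Cct6a had -0.12, -0.28 and -0.21. Of 24 genes of ER folding and stress, 15 were positive and 9 negative. Serpinh1 (HSP47), the collagen chaperone, had -0.54, -0.39 and -0.84 by pair, with a mean of -0.59 ± 0.23 (SD, n = 3; adjusted p = 0.247). With the block it was the one gene of that list to pass (adjusted p = 0.0267). The stress factor gene Xbp1 had 0.18 ± 0.15 and Ddit3 had -0.15 ± 0.17 (SD, n = 3). In the lists of mitochondrial import and protease genes, of heat shock factor regulators and of other J-domain and small heat shock genes, 0 of 14, 0 of 6 and 0 of 6 passed on the pair values.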

How the data were processed

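RNA of skin from 3 LynDN and 3 WT mice was extracted with Qiagen and labelled with Ambion reagents, per the labels' protocols. The authors deposited 1 log2 ratio per probe and array. Log base 2 was assumed, and the background correction, normalization and centring are not stated. Each array had a mean of 0 and medians lay between -0.02 and 0.00. Rows were named through the platform annotation, which gave 1 symbol to 21082 of 25344 probes, several to 30 and none to 4232. The members and lists were chosen with earlier results of these data known.

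Probes of 1 symbol were averaged on each array and the 2 arrays of a dye swap were averaged, since the labels put the same 2 mice on both. Means of the 3 pairs were set against 0 by limma 3.58.1 (R 4.3.3; lmFit then eBayes). P-values were Benjamini-Hochberg adjusted across 22879 rows, and 0.05 was the threshold. The block fit used duplicateCorrelation (0.151), a value at which the arrays of a swap count almost as separate mice. Mice are separate animals, so the spread is biological and technical together. Genes were named by a rule: Hsf2, genes that passed either fit, those with 1 sign on 6 arrays, the 4 smallest p of each role and up to 4 of each other list. Genes named besides these were chosen after their values were seen. Alternatives were the block fit, each pair left out, quantile normalization, median centring, each dye orientation alone, other probe summaries, a limit on dye-swap differences, no variance moderation, and the array labelled with another day left out. That array was the one of pair 2 with LynDN in Cy5. Simulated data (22879 rows, 200 changed, 10 runs) were used to check the fit. Promoters came from RefSeq tables. Precision is limited by the number of arrays.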

Additional observations from a re-analysis of the deposited data

Results flagged for a closer look

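In 5 of the 74 genes, 1 array lay far from the other 5 by Dixon's criterion for 6 values, which chance meets in about 1 of 20 groups. These were Dnajc25 at -1.34 (next value -0.09), Hspb6 at 0.65 (next 0.04), Hsf2 at 0.50 (next 0.04), Hsph1 at 0.39 (next -0.13) and Dnajb9 at 0.35 (next 0.11). The Dnajb9 value was on the array labelled with another day. Without that array the mean of Dnajb9 was 0.07, against 0.11 with it.

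The 2 dye orientations gave different ratios, by the test of the dye term, in 4 genes. The difference, LynDN in Cy5 minus LynDN in Cy3, was -0.95 for Hspb8, -0.80 for Hspa9, -0.73 for Dnajb1 and 0.46 for Dnaja4.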

How the results depend on the processing

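On the pair values 0 of the 74 genes passed. With the replicate block 1 passed, without 1 pair between 0 and 3, and 0 under each other alternative tried, where the smallest adjusted p lay between 0.0708 and 0.583. The median of the 74 genes stayed between -0.04 and 0.00 throughout. Genes positive on every array used numbered 4 with 6 arrays and between 4 and 11 without 1 pair, and those negative numbered 5 and between 6 and 19. On the 3 arrays with LynDN in Cy3 alone they were 17 and 18, and with LynDN in Cy5 alone 11 and 23. A single sign is easier to reach on fewer arrays. The shares of all rows under these alternatives are not given here, so these counts say nothing particular to the 74 genes.

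Of 406 values of 31 named genes under the alternatives, 382 kept sign and side of the threshold, 4 newly passed and 20 changed sign, all of them uncalled. With LynDN in Cy3 alone these were Hsph1 (0.0291), Hsp90aa1 (0.106), Hspa14 (0.108), Hsp90b1 (0.0819), Hspd1 (0.129) and Hspbp1 (-0.184). With LynDN in Cy5 alone they were Hsf2 (0.119), Hspa4 (-0.118), Hspe1 (0.184), Hspbap1 (0.0309) and Dnaja1 (-0.0055). Without 1 pair, values ran from -0.0979 to 0.0666 for Hsf2, -0.064 to 0.0828 for Hspa4, -0.0557 to 0.0435 for Hsp90b1, -0.0089 to 0.0589 for Hspbp1, -0.058 to 0.0311 for Hspe1 and -0.013 to 0.0928 for Dnaja1. Single probes gave Hspa4 -0.2498 and Hsp90b1 0.0359, and without the array of another day Hspbp1 had -0.0681. Causes were not tested. Over all rows the pair fit passed 4, quantile normalization 79, pairs 2 and 3 alone 1117 and the block fit 243.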

Other observations

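Of the 7 chaperone genes with several probes, Hspa4, Hsp90b1, Dnajb4 and Dnajc16 had probes on both sides of 0. Dnajb4 gave -0.13, -0.15 and 0.08, and Dnajc16 gave -0.03 and 0.03. The probes of Dnajc13 gave 0.20 and 0.01, those of Dnajc2 gave 0.12 and 0.10, and those of Dnajc21 gave -0.01 and -0.16.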
